A study of Rattus norvegicus with 14 samples.

Results

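Transcripts of the nuclear genes for the mitochondrial respiratory chain and the ATP synthase were followed in rat aorta by poly(A) RNA sequencing. The genes were taken by their symbols (those starting with Nduf, Uqcr, Cox4 to Cox8 or Atp5, and Sdha to Sdhd, Cyc1 and Cycs), with the added condition of at least 1 FPKM in at least 4 of 14 libraries. FPKM scales the fragments of a gene by the length of its transcript and by the fragments of the library, so levels of different genes can be set side by side. Of 17019 genes in the table, 88 matched by symbol and 85 met the condition. Of these 85, 75 encode subunits: 33 of complex I, 4 of complex II, 8 of complex III, cytochrome c itself, 15 of complex IV and 14 of the ATP synthase, also called complex V. The other 10 carry matching symbols but are not subunits, among them 6 assembly factors of complex I (Ndufaf1 and Ndufaf3 to Ndufaf7).

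The aortas came from 14 male Dark Agouti rats, 1 library each, cut between the renal arteries and the heart and freed of connective tissue. The 5 control rats (numbered 41, 42, 43, 44 and 46) were untreated and studied for 14 weeks. The 4 control rats with vitamin D (36, 37, 38 and 39) had intact kidneys, and their dose and length of treatment are not given in the sources used here. The 5 uremic rats (9, 17, 20, 27 and 28) had a 5/6 nephrectomy, which removes most of the kidney tissue, and 14 weeks of uremia. After 8 weeks they received 30 ng of alfacalcidol, a vitamin D prodrug, 3 times a week for 6 weeks. No group was uremic without vitamin D, and a diet rich in phosphate is mentioned without the rats that received it, so uremia, its vitamin D schedule and the diet cannot be told apart. Each rat is 1 animal, the only replicate unit here, and values below follow the order of the rat numbers just given.

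The respiratory chain passes electrons from NADH (complex I) and succinate (complex II) through ubiquinone, complex III and cytochrome c to oxygen at complex IV, and pumps protons out of the mitochondrial matrix. The ATP synthase lets the protons back and makes ATP. A few core subunits of the complexes are encoded in mitochondrial DNA, and these were not analysed here. The nuclear subunits are found in every cell with mitochondria, at high levels in heart and brown fat. The arterial wall is made mostly of smooth muscle, and the fat around the thoracic aorta of rats resembles brown fat.

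The subunits were among the abundant transcripts of the aorta. The 85 genes together took 1.97% to 3.03% of all FPKM in the control rats (median 2.08%), 2.16% to 4.01% in the control rats with vitamin D (median 3.18%) and 1.06% to 2.20% in the uremic rats (median 1.34%). The mean over all 14 rats ran from 0.914 FPKM for Cox6a2, the heart and skeletal muscle form of subunit VIa, to 819 FPKM for Atp5i, subunit e of the ATP synthase. The most abundant gene was Ndufb9 in complex I (507 FPKM), Sdhc in complex II (425 FPKM), Uqcrh in complex III (231 FPKM) and Cox6a1 in complex IV (496 FPKM). In 80 of the 85 genes every library had at least 1 FPKM. The 5 others were Cox6a2 (5 libraries), Ndufa10l1 (11), Cox6b2 (12), Ndufa4l2 (13) and Ndufaf1 (13). The 3 genes that matched by symbol and did not meet the condition, Atp5f1 (subunit b of the ATP synthase), Cox8c and Cox6c-ps1, were listed at 0 in all libraries. Since subunit b is used by every cell with an ATP synthase, a listed 0 may be a failed estimate. Cycs, the gene of somatic cytochrome c, averaged only 3.53 FPKM. Processed copies of this gene lie elsewhere in rodent genomes, so its reads could have been shared out between copies and its level is uncertain.

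Many of these genes carry recognition motifs of the same few transcription factors close to their start sites, known from earlier work on nuclear mitochondrial genes: NRF1, GABPA (also called NRF2), YY1 and ERRA, the estrogen-related receptor alpha. RefSeq promoters of assembly GRCr8, from 250 bases before to 50 bases after the start, were matched for 72 of the 85 genes and 64 of the 75 subunits. On either strand, the NRF1 motif (GCGCA, any base, GCGC) stood in 21.9% of the 64 subunit promoters, against 4.71% of 27457 promoters in all and 10.4% of the 8006 promoters of genes tested here. The GABPA motif CCGGAAG stood in 29.7%, against 9.22% and 18.5%. The YY1 motif AAGATGGC stood in 23.4%, against 3.44% and 5.97%, and the ERRA motif AAGGTCA in 17.2%, against 4.37% and 2.74%. The SP1 motif GGGCGG, for comparison, stood in 37.5% of the subunit promoters, 34.9% of all and 63.7% of tested genes. No motif contains another, the NRF1 match in Atp5o is the same on both strands, and a match is a description of letters, not of binding. Below are 4 promoters, written 5′ to 3′ on the strand of the gene with matches to the first 4 motifs in capitals. They show a promoter with NRF1 and YY1 motifs (Atp5o, listed by RefSeq as Atp5po, chr11:44657434-44657733, minus strand), one with GABPA, YY1 and ERRA motifs (Cox8a, chr1:213833574-213833873, minus strand) and one with 2 GABPA motifs (Cox4i1, chr19:65630133-65630432, plus strand). The fourth is a tissue-restricted form with none of the 4 motifs (Cox8b, chr1:205408224-205408523, minus strand).
Atp5o: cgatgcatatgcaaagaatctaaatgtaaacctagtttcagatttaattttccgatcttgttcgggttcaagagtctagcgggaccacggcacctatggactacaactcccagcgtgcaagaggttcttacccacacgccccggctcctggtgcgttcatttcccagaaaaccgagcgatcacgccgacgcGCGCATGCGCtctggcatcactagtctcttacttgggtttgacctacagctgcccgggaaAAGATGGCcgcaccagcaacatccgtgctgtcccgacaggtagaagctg
Cox8a: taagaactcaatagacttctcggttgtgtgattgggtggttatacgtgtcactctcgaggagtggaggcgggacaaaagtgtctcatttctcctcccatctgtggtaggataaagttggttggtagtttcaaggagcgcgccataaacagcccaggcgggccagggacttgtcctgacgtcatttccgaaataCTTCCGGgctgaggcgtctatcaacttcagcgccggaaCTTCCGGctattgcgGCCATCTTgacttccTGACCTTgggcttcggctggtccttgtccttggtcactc
Cox4i1: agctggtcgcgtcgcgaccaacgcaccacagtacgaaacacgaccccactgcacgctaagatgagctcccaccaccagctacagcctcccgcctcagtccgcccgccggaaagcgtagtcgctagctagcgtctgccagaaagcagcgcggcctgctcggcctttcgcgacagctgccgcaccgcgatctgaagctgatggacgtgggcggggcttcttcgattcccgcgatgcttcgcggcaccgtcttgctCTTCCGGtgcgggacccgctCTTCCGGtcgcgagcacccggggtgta
Cox8b: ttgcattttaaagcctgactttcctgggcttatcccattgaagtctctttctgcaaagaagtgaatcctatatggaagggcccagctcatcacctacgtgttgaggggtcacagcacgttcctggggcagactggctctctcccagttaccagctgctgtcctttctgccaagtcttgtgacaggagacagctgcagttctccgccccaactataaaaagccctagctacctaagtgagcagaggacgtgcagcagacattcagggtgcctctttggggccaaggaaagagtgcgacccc

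In uremic aortas 30 of the 85 genes were lower than in untreated controls and 1 was higher, by limma on log2(FPKM + 1). A gene was called where its Benjamini-Hochberg adjusted p, taken over the 9957 genes tested, was under 0.05. Over all genes tested, 10.5% were called lower and 11.4% higher. Of the 85 genes, 78 had a negative difference, and the median log2 difference was -0.48, against 0.005 over all genes. The genes called lower were 16 of 33 in complex I, 1 of 4 in complex II, 3 of 8 in complex III, 7 of 15 in complex IV and 3 of 14 in the ATP synthase. Neither cytochrome c nor any of the 10 genes that are not subunits was called lower. Median log2 differences were -0.54 for complex I, -0.47 for complex II, -0.56 for complex III, -0.54 for complex IV and -0.44 for the ATP synthase, and -0.14 for the genes that are not subunits. In 16 genes all uremic rats were below all control rats and in none all were above, against 7.32% and 8.38% of all genes.

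The count depended on single rats. Leaving out rat 41 or 46 of the controls or rat 17 of the uremic group gave 19, leaving out uremic rat 27 gave 49, and 18 genes stayed called lower whichever rat was left out. How many of all genes stayed called in every such fit was not counted. The share of all genes called lower was 8.60%, 10.3%, 9.09% and 11.03% without rats 41, 46, 17 and 27. The count was 40 with array weights, which give each library a weight of its own, and 40 with libraries scaled to 1 total, where 13.48% and 15.9% of all genes were called lower. It was 19 with quantile scaling (10.1% of all genes) and 17 with libraries scaled to 1 total after leaving out Mgp (7.26% of all genes), the gene of matrix Gla protein, a dominant aortic transcript. In the authors' deposited table, q was under 0.05 for 42 of the 85 genes in this pair of groups, all of them lower in uremia, and 29 of these were also called by limma. The share of all genes under this q was not counted, so the 42 cannot be set against the whole table.

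**Figure D1:**
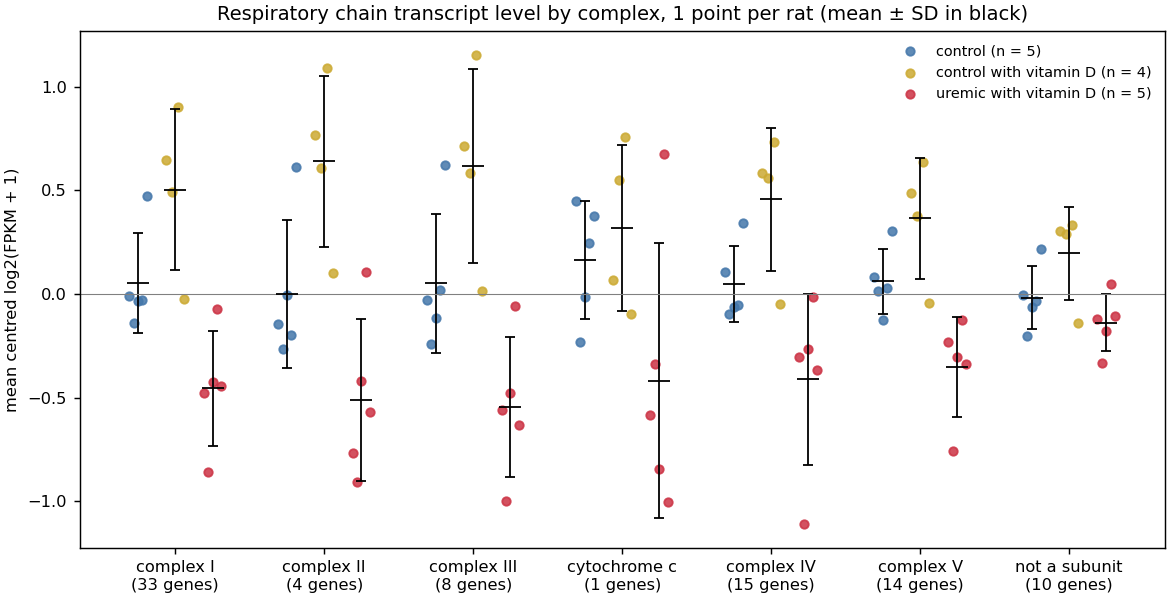
Level of each complex in every rat. The y axis is the mean over the genes of a complex of log2(FPKM + 1) minus each gene's mean over the 14 rats; points are rats (5 control, 4 control with vitamin D, 5 uremic with vitamin D) and black bars give the mean ± SD. Control rat 46 stands at 0.48 in complex I with the other controls between -0.14 and -0.01, and uremic rat 27 at -0.07 with the other uremic rats between -0.86 and -0.43.

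Bulk RNA cannot tell fewer cells of a type from less RNA per cell, and markers of brown fat moved with the genes of the respiratory chain from rat to rat. The brown fat list holds 15 genes in the table, of which Elovl3 was listed at 0 in all libraries. Its summed level was 419 to 958 FPKM in controls (median 501), 522 to 1802 with vitamin D (median 1086) and 168 to 782 in uremia (median 271). As mean centred log2 values, the 75 subunits and the brown fat markers stood at 0.44 and 0.67 in control rat 46, while the other 4 controls were between -0.12 and 0.03 and between -0.37 and -0.08. Uremic rat 27 was at -0.05 and 0.38, while the other 4 uremic rats were between -0.90 and -0.38 and between -1.34 and -0.53. The defining brown fat gene Ucp1, the uncoupling protein, was at 87.7 ± 31.2 FPKM in controls, 153 ± 96.6 with vitamin D and 19.1 ± 13.9 in uremia (SD, n = 5, 4 and 5). Of 13 brown fat markers tested, 1 was called lower in uremia against control (Ucp1, adjusted p = 0.00149), none with vitamin D against control, and 9 in uremia against control with vitamin D. Against control this share (7.69%) was below the 10.5% of all genes called lower. Against control with vitamin D it was 69.2%, beside 6.03% of all genes.

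A fit of all 3 groups together called 23 of the 85 genes lower in uremia against control. With the brown fat score as a covariate it called 9 lower (Cox6a1, Ndufv1, Atp5g3, Ndufb2, Ndufs7, Ndufs4, Cyc1, Ndufb3 and Cox4i2) and Cox6a2 higher. The share of all 10109 genes called lower went from 10.4% to 11.3% between these fits. The median log2 difference of the 85 genes went from -0.48 to -0.15 with the covariate. This fit cannot measure the part of brown fat. The score itself differed between the groups, with means of -0.007 in controls, 0.87 with vitamin D and -0.69 in uremia. Its genes also include some of oxidative metabolism, such as Cpt1b, which is on the list of fatty acid oxidation as well. The part of brown fat in each difference was not tested. White fat and general adipocyte markers, 16 genes with Pnpla2 listed at 0, summed to 2469 to 6399 FPKM in controls, 3362 to 9098 with vitamin D and 1753 to 9897 in uremia. Their median log2 difference was 1.00 with vitamin D against control, near the 0.99 of the brown fat markers, -0.07 in uremia against control and -1.19 in uremia against control with vitamin D. Of 15 tested, 1 was called higher with vitamin D (Cfd), or 6.67% beside 0.0103% of all genes. In uremia 2 were called lower and 2 higher against control, and 3 lower and 1 higher against control with vitamin D. The shares were 13.3% each, beside 10.5% and 11.4% of all genes, and 20.0% and 6.67%, beside 6.03% and 7.19%. The part of these markers in the differences was not tested. Other cell types moved as well. Contractile smooth muscle markers summed to 23580 to 33230 FPKM in controls and 10400 to 21930 in uremia, with 8 of 12 called lower. Macrophage markers summed to 80.0 to 205 FPKM in controls and 606 to 831 in uremia, with 12 of 13 called higher. Their part in the differences was not tested.

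**Figure D2:**
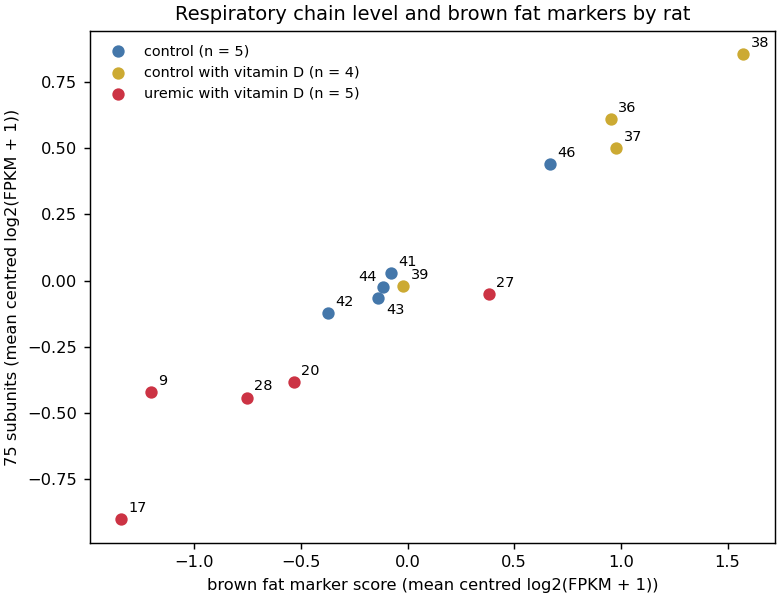
Respiratory chain level against brown fat markers, 1 point per rat with its number. Both axes are means of log2(FPKM + 1) centred on each gene's mean over 14 rats. Rat 38 (vitamin D) is highest on both axes, at 1.57 and 0.85, and rat 17 (uremic) lowest on both, at -1.34 and -0.90; rat 27 (uremic) lies right of the other uremic rats.

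Complex I takes electrons from NADH through an arm of flavin and iron-sulfur subunits. Ndufv1, which carries the flavin and the NADH site, was at 89.2, 82.9, 84.3, 87.2 and 174.8 FPKM in the control rats. It was at 174.9, 138, 219.8 and 98.9 FPKM with vitamin D and at 51.0, 36.6, 60.7, 73.3 and 46.6 FPKM in uremia. Every uremic rat was below every other rat, and control rat 46 stood with the rats on vitamin D. The means were 103.7 ± 39.8, 157.9 ± 51.6 and 53.7 ± 14.0 FPKM (SD). The log2 difference was -0.91 (SE 0.22, adjusted p = 0.0117) against control and -1.52 (SE 0.24, adjusted p = 0.00338) against control with vitamin D.

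Ndufs7, which holds the last iron-sulfur cluster before ubiquinone, was at 79.9, 80.6, 67.0, 96.4 and 92.8 FPKM in controls and at 55.3, 26.9, 36.6, 66.8 and 40.0 FPKM in uremia. The groups did not overlap, although uremic rat 27 and control rat 43 were nearly level. The difference was -0.93 on the log2 scale (SE 0.21, adjusted p = 0.00698). Ndufs8, another iron-sulfur subunit, was at 29.0 ± 4.47 FPKM in controls and 17.7 ± 2.76 FPKM in uremia (log2 difference -0.68, SE 0.14, adjusted p = 0.00445). Ndufs3 of the same arm was also called lower (adjusted p = 0.019). Ndufv2 and Ndufs1, the iron-sulfur subunits at the NADH end, were not called (adjusted p = 0.0597 and 0.173). In Ndufs1 control rat 46 was at 59.6 FPKM and the other controls between 19.4 and 29.0 FPKM.

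Among the accessory subunits of complex I, 2 of the membrane arm had the smallest p. Ndufb2 was at 80.1, 61.0, 66.2, 92.6 and 74.96 FPKM in controls and at 49.8, 41.6, 55.1, 47.9 and 39.3 FPKM in uremia. No uremic rat reached a control rat, and the log2 difference was -0.67 (SE 0.13, adjusted p = 0.00363). Ndufb3 was at 44.1, 34.5, 46.2, 31.98 and 42.8 FPKM in controls and at 12.3, 16.9, 17.8, 32.1 and 21.3 FPKM in uremia. It had the largest difference of the complex (-1.01, SE 0.21, adjusted p = 0.0041), and only uremic rat 27 lay within the range of the controls. Ndufb11, also of the membrane arm, went from 90.8 ± 9.57 FPKM in controls to 60.6 ± 10.8 FPKM in uremia (-0.59, SE 0.13, adjusted p = 0.00641). Ndufs4, an accessory subunit of the NADH end, went from 62.4 ± 11.8 to 39.8 ± 7.90 FPKM (-0.64, SE 0.16, adjusted p = 0.0115). The most abundant subunit, Ndufb9, was at 487 ± 69.7 and 344 ± 102 FPKM, and its call (adjusted p = 0.0487) was lost without any 1 rat other than rat 27. Ndufa1, Ndufa12 and Ndufv3 were not called (adjusted p = 0.107, 0.439 and 0.222).

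**Figure D3:**
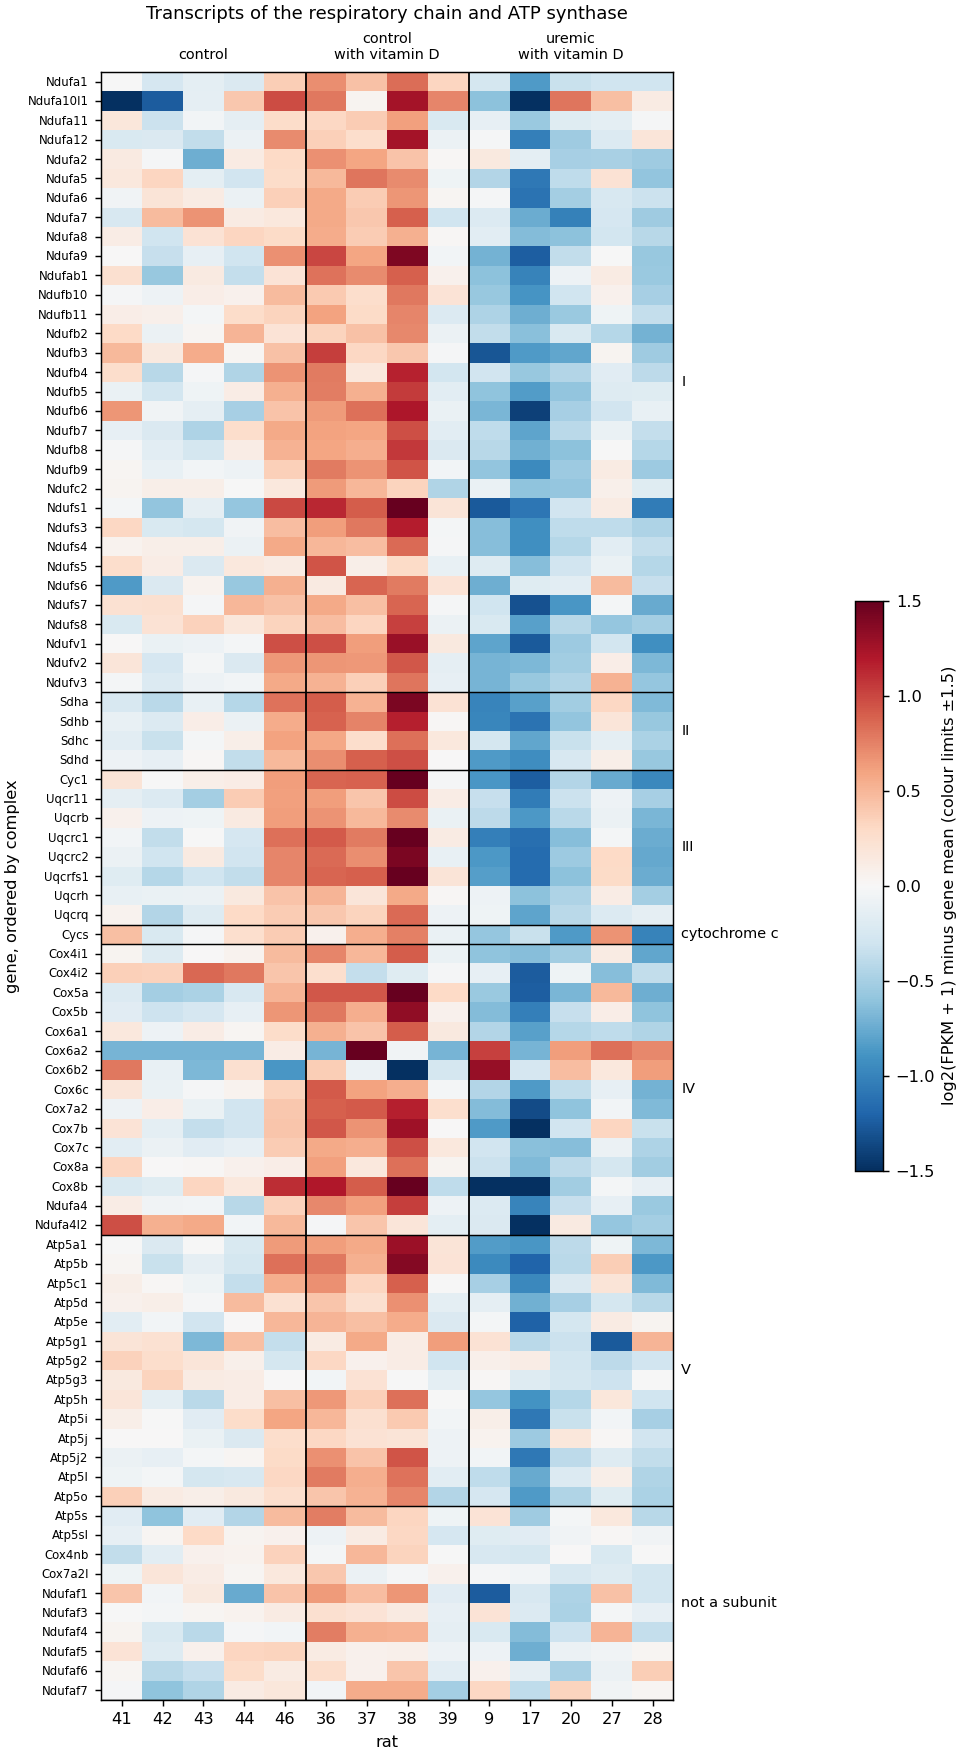
The genes, 84 of the 85, ordered by complex, in the 14 rats. Colour gives log2(FPKM + 1) minus the mean of the gene over the 14 rats, limited at ±1.5, with red above and blue below the mean. Rats 46, 36, 37 and 38 are red through most of complexes I to V, rats 9, 17, 20 and 28 are blue, and rat 27 is paler than the other uremic rats; the c ring genes Atp5g1 to Atp5g3 and the genes that are not subunits show less of this pattern.

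Complex II, succinate dehydrogenase, is wholly encoded in the nucleus and is also an enzyme of the citrate cycle. Its 4 genes had log2 differences between -0.66 and -0.43 in uremia against control. Only Sdhb, the iron-sulfur subunit, was called (101 ± 23.7 and 65.3 ± 25.5 FPKM, log2 difference -0.66, SE 0.22, adjusted p = 0.0499). This call was lost without any 1 rat other than rat 27, with adjusted p up to 0.111 (without uremic rat 17). Sdha, the flavoprotein, was at 106, 93.9, 116, 93.0 and 220.1 FPKM in controls and at 62.7, 70.5, 87.1, 154.8 and 78.5 FPKM in uremia. Apart from control rat 46 and uremic rat 27 the uremic rats were below the controls, but the difference was not called (-0.46, SE 0.27, adjusted p = 0.240). The membrane anchors Sdhc and Sdhd were not called either (adjusted p = 0.0979 and 0.108).

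Complex III moves electrons from ubiquinone to cytochrome c, and its subunit Cyc1, cytochrome c1, had the smallest p of all 85 genes. Cyc1 was at 46.3, 40.1, 42.8, 43.5 and 62.6 FPKM in controls. It was at 74.7, 75.2, 116.8 and 39.8 FPKM with vitamin D and at 21.6, 16.5, 29.4, 23.5 and 20.1 FPKM in uremia. All 5 uremic rats, rat 27 included, were below all 9 rats with intact kidneys. The group means were 47.0 ± 8.95, 76.6 ± 31.5 and 22.2 ± 4.79 FPKM, which makes the control mean 2.12-fold the uremic mean. The log2 difference in uremia was -1.06 (SE 0.16, adjusted p = 0.000522) against control and -1.67 (SE 0.26, adjusted p = 0.00313) against control with vitamin D.

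Uqcrc1, core protein 1 of complex III, was at 79.4 ± 30.2 FPKM in controls and 46.5 ± 15.6 FPKM in uremia (-0.75, SE 0.24, adjusted p = 0.0413). Its call was lost in 7 of 10 fits without 1 rat, with adjusted p up to 0.0942 (without uremic rat 17). Uqcrb, a small binding protein of the complex, was at 85.3 ± 19.1 and 55.1 ± 11.6 FPKM without overlap (-0.62, SE 0.17, adjusted p = 0.0188). Uqcrfs1, the Rieske iron-sulfur protein, was not called (adjusted p = 0.203). Uremic rat 27 had 94.6 FPKM of it, above 4 of the 5 controls, and the other uremic rats had 34.2 to 49.9 FPKM. Cycs was at 4.78, 2.61, 3.20, 4.04 and 4.503 FPKM in controls and at 1.83, 2.36, 1.36, 5.78 and 1.12 FPKM in uremia. Rat 27 was the highest and the other 4 the lowest of these rats, and the difference was not called (-0.58, SE 0.28, adjusted p = 0.160).

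Complex IV, cytochrome c oxidase, contains subunits with a general form and a second form that is restricted to some tissues. Among the general forms, Cox6a1, subunit VIa, was at 525, 448, 511, 482 and 571 FPKM in controls. It was at 347, 267, 351, 361 and 344 FPKM in uremia, below every control rat (-0.60, SE 0.12, adjusted p = 0.00337). Cox8a, whose promoter is printed above, was at 163.9, 131.6, 131.9, 137 and 141 FPKM in controls and at 104.5, 82.5, 99.0, 109 and 90.9 FPKM in uremia. The groups did not overlap here either (-0.54, SE 0.11, adjusted p = 0.00392). Cox4i1, the general subunit IV, was at 459 ± 82.1 and 315 ± 88.2 FPKM (-0.56, SE 0.18, adjusted p = 0.0387). This call was lost in 8 of 10 fits without 1 rat, with adjusted p up to 0.0957 (without uremic rat 28). Cox7a2 was called (-0.67, SE 0.20, adjusted p = 0.0344), with the call lost in 8 of 10 such fits and adjusted p up to 0.0726 (without control rat 42). Cox5a, Cox5b, Cox7c and Ndufa4 were not called (adjusted p = 0.384, 0.153, 0.0679 and 0.0992).

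The restricted forms of complex IV went different ways. Cox4i2, the form of subunit IV best known from lung, was at 26.5, 26.2, 38.2, 36.3 and 27.7 FPKM in controls. It was at 24.5, 15.7, 17.9 and 20.2 FPKM with vitamin D and at 18.8, 8.04, 19.5, 12.8 and 15.6 FPKM in uremia. Both groups on vitamin D lay wholly below the untreated controls. The log2 difference was -1.05 (SE 0.21, adjusted p = 0.00373) in uremia against control and -0.63 (SE 0.16, adjusted p = 0.0931) with vitamin D against control. It was the only one of the 84 genes tested whose groups did not overlap in the latter pair, where 3.34% of all genes lay wholly lower and 2.37% wholly higher. Uremia against control with vitamin D gave -0.41 (SE 0.23, adjusted p = 0.275).

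Ndufa4l2, a relative of Ndufa4 that hypoxia induces, was at 5.70, 3.98, 4.07, 2.33 and 3.82 FPKM in controls and at 1.94, 0, 2.77, 1.297 and 1.42 FPKM in uremia. It was called lower (-1.09, SE 0.31, adjusted p = 0.0243), but not without control rat 41 (adjusted p = 0.0596) or control rat 42 (adjusted p = 0.0506). Cox8b, the form of subunit VIII of heart, skeletal muscle and brown fat in rodents, was at 30.4, 31.4, 45.1, 40.1 and 78.0 FPKM in controls. It was at 83.6, 67.9, 175 and 27.3 FPKM with vitamin D and at 11.5, 3.80, 24.6, 34.98 and 32.7 FPKM in uremia. Its highest and lowest rats, 38 and 17, are also those of the 75 subunits as a whole, and no comparison passed (adjusted p = 0.0763 in uremia against control and 0.0503 against control with vitamin D).

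Cox6a2 was the 1 gene called higher in uremia. It was listed at 0 in 4 controls and at 0.759 FPKM in control rat 46, and at 2.32, 0, 1.51, 1.89 and 1.69 FPKM in uremia. With vitamin D it was listed at 0 in 2 rats, at 0.572 FPKM in rat 38 and at 4.05 FPKM in rat 37. The log2 difference on the FPKM + 1 scale was 1.04 (SE 0.31, adjusted p = 0.0312), and the groups overlapped. No control reached 1 FPKM, so the gene met the filter of 1 FPKM in 4 libraries through the 4 uremic rats alone, and its call is not independent of the filter. The call was lost without control rat 41, 42, 43 or 44, with adjusted p between 0.0627 and 0.0667, and without uremic rats 9, 20, 27 or 28 the gene did not meet the filter. With a pseudocount of 0.1 or 0.01 it was not called. Cardiac muscle markers, whose list holds 15 genes with Nppa and Nkx2-5 listed at 0, summed to 334 to 437 FPKM in controls and 271 to 580 in uremia. Of 8 tested, 2 (Tnni3 and Pln) were called higher, with a median of 0.16. Myh6, the alpha myosin heavy chain of the heart, was at 0.481 ± 0.265 FPKM in controls and 0.097 ± 0.151 in uremia, below the filter and not tested. Skeletal muscle markers, 14 genes with Myh8 listed at 0, summed to 106 to 180 FPKM in controls and 75.7 to 128 in uremia. Of 7 tested, 3 (Acta1, Ckm and Tnnc2) were called lower, with a median of -0.30. The part of either muscle in the level of Cox6a2 was not tested.

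**Figure D4:**
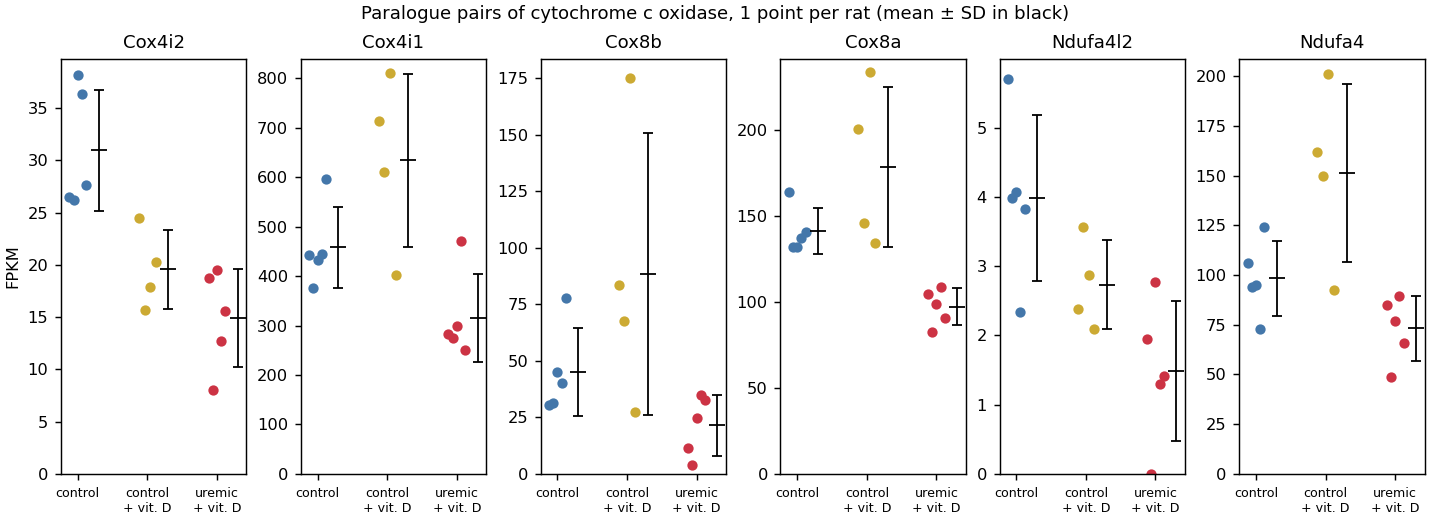
Restricted forms of complex IV (Cox4i2, Cox8b, Ndufa4l2) beside their general partners (Cox4i1, Cox8a, Ndufa4) in FPKM, 1 point per rat, with mean ± SD in black. The 4 vitamin D rats lie between 15.7 and 24.5 FPKM for Cox4i2, below all 5 controls, but between 402 and 810 FPKM for Cox4i1, where only rat 39 is within the range of the controls.

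Ratios of paired forms within a library were compared with exact 2-sided permutation tests, 18 in all over 6 pairs, with the smallest possible p of 0.00794 in each comparison. None passed after Benjamini-Hochberg adjustment, where the lowest adjusted p was 0.107. Over 18 tests, a lone ratio at the smallest possible p could not have passed, even with groups wholly apart. The lack of a pass therefore does not show that the ratios were unchanged. This value was shared by 4 tests. The log2 ratio of Cox4i2 to Cox4i1 was -4.43 to -3.50 in controls and -5.49 to -4.30 with vitamin D (difference -1.09, exact p = 0.0238). The ratio of Ndufa4l2 to Ndufa4 was -4.98 to -4.19 in controls and -6.08 to -5.35 with vitamin D, without overlap (-1.09, exact p = 0.00794). It was -8.93 to -4.74 in uremia (-1.48 against control, exact p = 0.0238). The ratio of Cox6a2 to Cox6a1 was 3.40 higher in uremia than in controls (exact p = 0.0159), where it rests on controls listed at 0. Its size there depends on the 0.1 FPKM added to both genes. No control reached 1 FPKM of Cox6a2, so the pair was admitted through the other groups. This p is therefore not independent of the condition for the set. Exact p for Cox8b to Cox8a was 0.246 in uremia against control and 0.333 with vitamin D against control.

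The ATP synthase is a rotary enzyme with a catalytic head, a central shaft, a side stalk and a ring of c subunits in the membrane. Atp5o, the stalk protein that confers oligomycin sensitivity and whose promoter is printed above, was at 119.8, 102, 99.1, 103.5 and 111 FPKM in controls. It was at 77.9, 51.5, 68.0, 82.2 and 66.7 FPKM in uremia, wholly below the controls (-0.64, SE 0.13, adjusted p = 0.00357). Atp5d, the delta subunit, was also wholly below (93.9 ± 13.3 and 62.9 ± 9.67 FPKM, -0.57, SE 0.13, adjusted p = 0.00782). Atp5a1, the alpha subunit, was called (198 ± 55.2 and 129 ± 32.4 FPKM, -0.61, SE 0.19, adjusted p = 0.0397), with the call lost in 7 of 10 fits without 1 rat and adjusted p up to 0.089 (without uremic rat 17).

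Atp5b, the catalytic beta subunit, was at 526, 409, 470, 431 and 918 FPKM in controls and at 266, 223, 389, 668 and 284 FPKM in uremia. Control rat 46 and uremic rat 27 stood far above the other rats of their groups, and the difference was not called (-0.64, SE 0.29, adjusted p = 0.137). The most abundant gene, Atp5i, was at 892 ± 189 and 632 ± 181 FPKM (-0.53, SE 0.22, adjusted p = 0.1003). The 3 genes for the c ring make the same mature protein with different targeting peptides. Atp5g1 was at 6.17 ± 2.15, Atp5g2 at 81.1 ± 12.6 and Atp5g3 at 65.4 ± 5.50 FPKM in controls. In uremia they were at 5.44 ± 2.75, 66.8 ± 11.02 and 53.2 ± 5.79 FPKM, with log2 differences between -0.29 and -0.22 and none called (adjusted p = 0.657, 0.186 and 0.0624). With vitamin D they were at 8.15 ± 1.75, 77.2 ± 13.4 and 59.4 ± 6.60 FPKM.

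**Figure D5:**
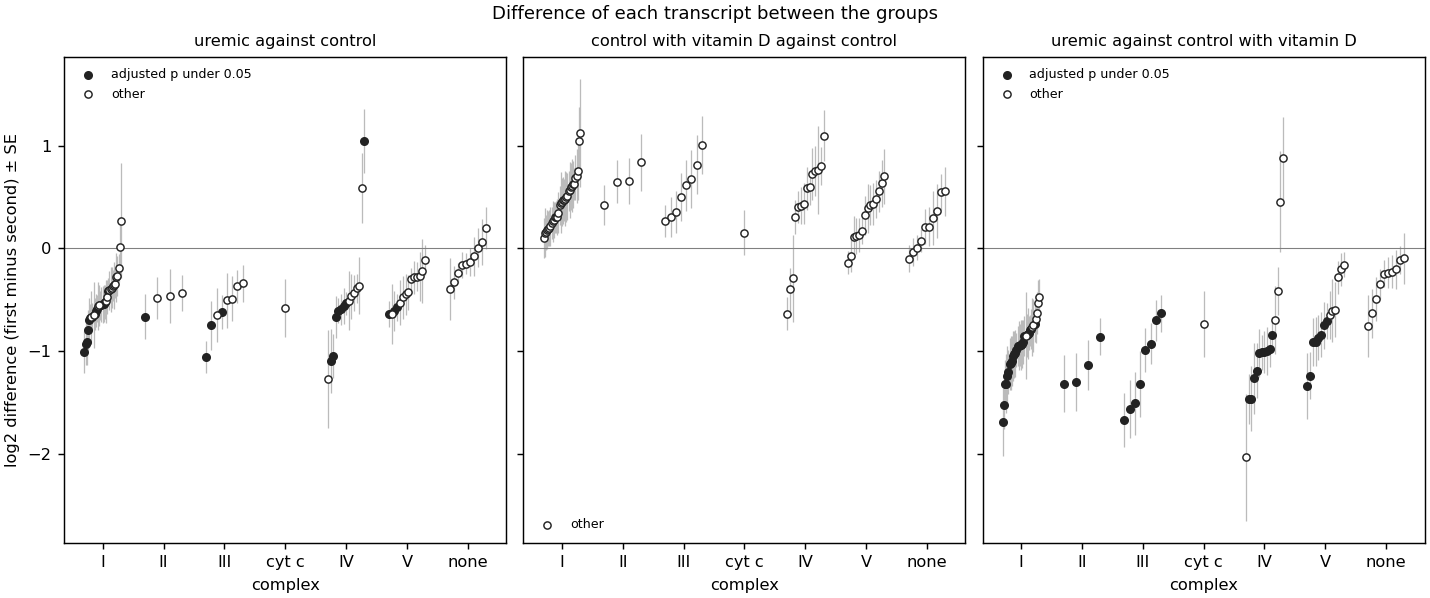
Log2 difference of each gene (± SE) in the 3 comparisons, grouped by complex; filled points have an adjusted p under 0.05. Most points lie below 0 in uremia against control, above 0 with vitamin D against control (where none is filled) and further below 0 in uremia against control with vitamin D, while the genes that are not subunits (none) stay nearer to 0 with medians of -0.14, 0.21 and -0.24.

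In control rats with vitamin D, most of the 84 genes tested had higher means than in untreated controls, but none passed the test. Of the 84, 77 had a positive difference, with a median of 0.42 against 0.0002 over all 9693 genes tested. With limma 0 genes were called, 34 had an unadjusted p under 0.05, and with voom on the recovered reads 0 were called. Over all genes, 0.134% were called, 0.124% lower and 0.0103% higher, and 18.4% had an unadjusted p under 0.05. In the authors' deposited table, q was under 0.05 for 31 of the genes, 30 of them higher and 1 lower with vitamin D. How many genes of the whole table passed this q was not counted, so the 31 may not be particular to this set. The median log2 difference was 0.45 in complex I, 0.65 in complex II, 0.56 in complex III, 0.51 in complex IV and 0.36 in the ATP synthase, and 0.21 in the genes that are not subunits.

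The gene with the smallest p with vitamin D in each complex was not always the gene with the largest difference, and none was called. Cox5a, subunit Va, was at 29.9, 24.0, 24.8, 29.4 and 49.9 FPKM in controls and at 67.0, 67.4, 100 and 42.9 FPKM with vitamin D. Rat 39 on vitamin D lay below control rat 46, and the log2 difference was 1.10 (SE 0.25, adjusted p = 0.0847). Uqcrfs1 was at 75.2 ± 30.4 and 153.6 ± 63.1 FPKM (1.00, SE 0.28, adjusted p = 0.116), and Ndufa1 at 268 ± 50.3 and 413 ± 67.8 FPKM (0.62, SE 0.16, adjusted p = 0.0918). Sdhd was at 57.6 ± 13.6 and 92.0 ± 24.6 FPKM (0.65, SE 0.21, adjusted p = 0.148) and Atp5l, subunit g of the ATP synthase, at 145 ± 24.9 and 219 ± 59.9 FPKM (0.56, SE 0.20, adjusted p = 0.172). Cytochrome c gave 0.15 (SE 0.22, adjusted p = 0.751). Without vitamin D rat 39, which stood at -0.02 on the mean centred scale of the 75 subunits while the other 3 were between 0.50 and 0.85, 21 genes were called higher. Without control rat 46 the number was 11, and with array weights 16. Over all genes 1 was called higher in the fit with every rat, and 263 of 9638, 233 of 9610 and 264 of 9693 in these 3 fits, or 2.73%, 2.42% and 2.72%. Adding the brown fat score as a covariate to the joint fit took the median difference from 0.42 to 0.04. Genes of the set with an unadjusted p under 0.05 went from 35 to 4, and those among all 10109 genes from 1777 to 1120. The score itself differed between these groups, so the fit cannot measure the part of brown fat, which was not tested.

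Between the groups that both received vitamin D, 56 of the 85 genes were lower in uremia and none was higher, where 6.03% of all 9916 genes tested were called lower and 7.19% higher. No gene was called higher in any alternative run. The median log2 difference was -0.87, against 0.006 over all genes, and 83 of the 85 were negative. The genes called were 26 of 33 in complex I, all 4 in complex II, all 8 in complex III, 10 of 15 in complex IV and 8 of 14 in the ATP synthase, and none of the 10 that are not subunits. In 25 genes all uremic rats were below and in none all were above, against 5.69% and 7.06% of all genes. In the authors' deposited table, q was under 0.05 for 65 of the 85, all lower, and 55 of these were also called by limma. Here too the share of all genes under this q was not counted.

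The smallest p belonged to Cyc1 and Ndufv1, followed by Cox7a2. Cox7a2 was at 127, 129.6, 153 and 81.0 FPKM with vitamin D and at 42.9, 26.2, 44.4, 65.9 and 42.5 FPKM in uremia. No uremic rat reached the lowest rat of the other group (-1.47, SE 0.24, adjusted p = 0.00399). The call of Sdha was at -1.30 (SE 0.28, adjusted p = 0.013) and that of Sdhc at -0.86 (SE 0.18, adjusted p = 0.011). The call of Uqcrfs1 was at -1.51 (SE 0.31, adjusted p = 0.00977) and that of Ndufs1, the largest iron-sulfur subunit of complex I, at -1.69 (SE 0.33, adjusted p = 0.00774). Atp5a1 differed by -1.24 (SE 0.23, adjusted p = 0.00598) without overlap. Atp5b differed by -1.34 (SE 0.32, adjusted p = 0.0192), a call lost without vitamin D rat 36 (adjusted p = 0.0598) or rat 38 (adjusted p = 0.0613). The c ring genes and Cycs were not called.

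The count of 56 fell to 27 without vitamin D rat 36 and 30 without rat 38. The genes called lower over the whole table fell in the same fits from 598 to 249 and 266, or from 6.03% to 2.53% and 2.70%. Of the 85, 26 stayed called whichever rat was left out, a count that was not made for all genes. These 26 included all 4 genes of complex II and 5 of complex III. With the brown fat score in the fit of all 3 groups the count went from 59 to 1 (Atp5g1) and the median difference from -0.87 to -0.16, while the genes lower over the whole table went from 787 to 298, or from 7.79% to 2.95%. With the cardiac score in its place the count was 47, and the genes lower over the whole table were 435, or 4.30%. Because the comparisons share the uremic or the control rats, they are set side by side here without a test between them. In both comparisons 27 genes were called lower in uremia, 3 against untreated control alone (Cox4i2, Ndufa4l2 and Ndufs5) and 29 against control with vitamin D alone. The mean was lowest in uremia and highest with vitamin D in 73 of the 85 genes. Neither the overlap of calls nor this order was counted over all genes. Both counts may therefore not be particular to this set. The 12 with another order included Cox4i2, Ndufa4l2, Cox6a2 and Cox6b2 of complex IV and Atp5g2 and Atp5g3 of the c ring.

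Motif shares were set beside the calls in uremia against control. Of the subunits with a promoter, 22 were called lower and 41 were not called. The NRF1 motif stood in 13.6% of the 22 and 26.8% of the 41, the GABPA motif in 31.8% and 29.3%, the YY1 motif in 31.8% and 19.5%, and the ERRA motif in 18.2% and 17.1%. No test was made of these shares. Of the 4 printed promoters, Atp5o and Cox8a carry 2 and 3 of the 4 motifs, Cox4i1 the GABPA motif alone and Cox8b none. Atp5o, Cox8a and Cox4i1 were called in both uremic comparisons and Cox8b in neither. These 4 genes are examples, and the shares above are those of the set. The call of Atp5o against control with vitamin D was lost in 7 of 9 fits that left out 1 rat, with adjusted p up to 0.143. That of Cox4i1 was lost in 8 of 10 such fits against control and in 2 of 9 against control with vitamin D.

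Genes that regulate, assemble or feed the respiratory chain were taken from lists. Of 19 tested regulators of mitochondrial biogenesis, none was lower and 1 higher in uremia against control, with a median log2 difference of 0.01. The share called higher, 5.26%, was below the 11.4% of all genes. Against control with vitamin D, 2 were lower (Gabpa and Peo1) and 1 higher, with a median of -0.18. These shares were 10.5% and 5.26%, beside 6.03% and 7.19% of all genes. Ppargc1a, the coactivator best known for inducing mitochondria in brown fat and muscle, was at 4.40 ± 1.85 FPKM in controls, 24.1 ± 19.9 with vitamin D and 9.97 ± 8.32 in uremia, with no call (adjusted p = 0.0845 with vitamin D against control). Nrf1, Esrra and Tfam, the mitochondrial DNA packaging factor, were not called in any comparison. Gabpa was at 11.6 ± 1.25 FPKM with vitamin D and 8.27 ± 0.979 in uremia (-0.44, SE 0.13, adjusted p = 0.0488). The gene called higher was Nfe2l2, a factor of the oxidative stress response, at 52.0 ± 5.43 in controls and 75.2 ± 6.51 FPKM in uremia (0.53, SE 0.11, adjusted p = 0.00357).

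Of 28 assembly factors of the complexes, 2 were lower (Lrpprc and Tmem70) and 2 higher (Timmdc1 and Coa4) in uremia against control, with a median of -0.20. These shares, 7.14% in each direction, lie below the 10.5% and 11.4% of all genes called lower and higher. Tmem70, which helps to assemble the ATP synthase, was at 22.8 ± 6.84 FPKM in controls and 11.7 ± 3.73 in uremia (-0.91, SE 0.21, adjusted p = 0.00906). Timmdc1, an assembly factor of complex I, was at 22.4 ± 2.63 and 29.9 ± 1.75 FPKM (0.40, SE 0.11, adjusted p = 0.0158). Against control with vitamin D 7 assembly factors were lower and none higher. Of 19 genes for ubiquinone and other electron entry, 1 was lower against control (Prodh, proline dehydrogenase) and 7 against control with vitamin D. The first share, 5.26%, was below the 10.5% of all genes, and the second was 36.8%, beside 6.03%.

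Genes of the pathways that supply electrons, and of the ribosome that makes the subunits of mitochondrial DNA, were counted in the same way, beside 10.5% and 6.03% of all genes called lower in uremia against control and against control with vitamin D. In uremia against control and against control with vitamin D, 4 and 15 of 18 citrate cycle genes were lower (medians -0.65 and -1.30) and 1 and 16 of 19 genes of fatty acid oxidation (medians -0.75 and -1.63). Glycolysis gave 3 and 3 of 17 genes lower, 1 and 0 higher, with medians of -0.09 and -0.39. Of 65 genes of the mitochondrial ribosome 8 and 18 were lower (medians -0.23 and -0.42). Against control, the share of the mitochondrial ribosome (12.3%) was near that of all genes and the share of fatty acid oxidation (5.26%) below it. With vitamin D against control none of these 4 lists had a called gene, with medians of 0.78, 0.85, 0.31 and 0.19. Cs, citrate synthase, was at 106 ± 38.4 FPKM in controls, 207 ± 75.6 with vitamin D and 79.4 ± 31.1 in uremia. The adenine nucleotide carrier Slc25a4 was at 407 ± 20.1, 362 ± 34.9 and 307 ± 29.6 FPKM and was lower in uremia against control (-0.41, SE 0.11, adjusted p = 0.0155).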

How the data were processed

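The authors sequenced poly(A) RNA of 14 aortas. The submitters' processing notes list cutadapt 1.3, TopHat2 2.0.10, Cufflinks 2.1.1, Cuffdiff and genome build rn5, without settings. The deposited table gives 1 value per gene and library, group means, and the authors' q-values (adjusted p-values) for each pair of groups. No unit stands in its header. FPKM was taken as the unit of the deposited values, since Cufflinks reports it. In 96.963% of the genes that were above 0 in 8 or more libraries (10951 of 11294), values were whole multiples of a step per gene and library, within 0.1 read. Reads recovered in this way summed to between 1560289 and 5155491 per library, with a median of 159.5 per gene and library in the 82 genes of the set for which it could be done. Counting intervals are not given, and the error stated is that between rats.

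For a comparison, the libraries of both groups entered the fit, with the genes that reached 1 FPKM in 4 or more of these libraries. Values were tested on log2(FPKM + 1) with limma 3.58.1 in R 4.3.3 (lmFit, eBayes with a trend, 2-sided), with Benjamini-Hochberg adjustment over every gene tested and a threshold of 0.05. Differences on this scale understate those of genes with low FPKM. The fit was tested on simulated data. Ratios of forms used FPKM + 0.1 in both genes. Scores are means of centred log2(FPKM + 1) and have no test. Other work used Python 3.11.15, numpy 2.4.6, pandas 2.3.3 and matplotlib 3.10.9. Alternatives were other pseudocounts, filters, scalings and weights, voom on recovered reads, 1 fit for all 3 groups with and without a brown fat or cardiac score, and leaving out each rat.

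Named genes are the smallest p in each complex and comparison, the 10 called genes with the smallest p, any call against the main direction, the most abundant gene of each complex, paired forms, complex II, Cyc1, Cycs, genes with a rat far from the others of its group, and up to 3 called genes of each list. Other genes are named after their values were seen. Genes and lists were chosen with earlier results of these data known, so no list has a test of its own. The labels give 1 rat per library and no batch, and rat 27 has 2 index sequences. The values of 1 gene of the set are not reported here; it stays in the counts and medians over the set.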

Additional observations from a re-analysis of the deposited data

Results flagged for a closer look

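Over 84 genes in each of 3 groups, 33 combinations of a gene and a group held 1 rat that lay far from the others by Dixon's criterion, where chance alone gives about 1 in 20, or 12.6; the genes share their rats, so these marks are not independent. Control rat 46 was highest in 19 of them. In the ATP synthase it had 918 FPKM of Atp5b (other controls 409 to 526) and 294 of Atp5a1. In complex I it had 608 FPKM of Ndufb9, 328 of Ndufb10, 193.8 of Ndufv3, 174.8 of Ndufv1, 97.5 of Ndufa9, 82.9 of Ndufs4, 73.4 of Ndufa12 and 59.6 of Ndufs1. In complexes II and III it had 220.1 FPKM of Sdha, 132 of Uqcrc1, 129 of Uqcrfs1, 118 of Uqcrb and 62.6 of Cyc1. In complex IV it had 379 FPKM of Cox5b, 207 of Cox7c, 49.9 of Cox5a and 0.759 of Cox6a2, which was listed at 0 in the other controls. The brown fat score of this rat was also the highest of the controls, and its part in these values was not tested.

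Uremic rat 27 was highest in 8, with 470.2 FPKM of Cox4i1 (other uremic rats 251 to 298), 203 of Ndufv2, 188 of Ndufv3, 154.8 of Sdha, 94.6 of Uqcrfs1, 49.0 of Cox5a, 30.3 of Ndufaf4 and 5.78 of Cycs. It had the highest brown fat score of its group and is the rat with 2 index sequences, and the part of either was not tested. Uremic rat 17 was lowest in 3, with 267 FPKM of Cox6a1, 150.9 of Ndufa1 and 10.8 of Ndufaf5. The remaining marks were control rat 41 at 163.9 FPKM of Cox8a (others 132 to 141), vitamin D rat 39 at 145.8 FPKM of Atp5e (others 233 to 250.3) and vitamin D rat 37 at 4.05 FPKM of Cox6a2.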

How the results depend on the processing

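The direction of the median over the 85 genes was the same in all alternatives run in each comparison. By complex, the brown fat score turned the median of the ATP synthase with vitamin D against control to -0.06, and that of the genes that are not subunits in uremia against control with vitamin D to 0.10. Cytochrome c, which is 1 gene, also turned, from 0.15 to -0.34 with vitamin D against control. In uremia against control with vitamin D it went from -0.74 to 0.14. The number of genes lower in uremia against control (30) was 40 with array weights and with equal totals, 19 with quantile scaling, 17 with equal totals after leaving out Mgp, 9 with the brown fat score and 13 with the cardiac score, and 19 to 49 without 1 rat. With the cardiac score 6.865% of all genes were called lower, against 10.42% in the fit of all 3 groups without a score. The number higher (1) was 0 with pseudocounts of 0.1 and 0.01, the stricter filter, voom, 1 fit for all 3 groups and the cardiac score, and 0 to 1 without 1 rat. With vitamin D against control the number higher (0) was 16 with array weights and 0 to 21 without 1 rat. In uremia against control with vitamin D the number lower (56) was 1 with the brown fat score and 27 to 63 without 1 rat. The cause of these changes was not tested. Equal totals shifted the median of all genes by -0.09, 0.03 and -0.12 in the 3 comparisons in the order above, where the median of the 85 genes was -0.59, 0.45 and -1.01. In uremia against control, 1046 genes of the table were lower and 1131 higher as deposited, 1581 and 842 with equal totals, and 723 and 1468 with equal totals after leaving out Mgp.

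With the brown fat score as a covariate, the sign of these named genes changed: in uremia against control Atp5e (0.079), Atp5l (0.062), Cox5a (0.20), Cox5b (0.023), Ndufa12 (0.079), Ndufaf4 (0.24), Ndufs1 (0.013), Ndufv3 (0.047), Sdha (0.083) and Uqcrfs1 (0.094), in vitamin D against control Atp5b (-0.060), Atp5e (-0.13), Atp5g2 (0.046), Atp5i (-0.20), Atp5o (-0.24), Cox4i1 (-0.040), Cox8b (-0.51), Cycs (-0.34), Ndufb10 (-0.087), Ndufb11 (-0.15), Ndufb2 (-0.052), Ndufb3 (-0.29), Ndufs4 (-0.098), Ndufs7 (-0.21), Ndufv2 (-0.067), Ndufv3 (-0.22), Uqcrb (-0.11) and Uqcrh (-0.036), and in uremia against control with vitamin D Atp5b (0.017), Atp5e (0.21), Cox8b (0.23), Cycs (0.14), Ndufa12 (0.06), Ndufaf4 (0.10), Ndufaf5 (0.11) and Ndufv3 (0.27). Without 1 rat, the sign changed in Atp5g1 in uremia against control (-0.41 to 0.035), Ndufaf4 in uremia against control (-0.26 to 0.033), Atp5g2 in vitamin D against control (-0.17 to 0.045), Atp5o in vitamin D against control (-0.030 to 0.36) and Ndufb3 in vitamin D against control (-0.096 to 0.25), none of which was called, and in the log2 ratios of Cox6a2/Cox6a1 in vitamin D against control (-0.14 to 1.69), Ndufa4l2/Ndufa4 in uremia against control with vitamin D (-0.72 to 0.32), Atp5g1/Atp5g3 in uremia against control (-0.16 to 0.30), Atp5g2/Atp5g3 in uremia against control (-0.060 to 0.092), Atp5g2/Atp5g3 in vitamin D against control (-0.038 to 0.13) and Atp5g2/Atp5g3 in uremia against control with vitamin D (-0.13 to 0.058). The same held for Atp5g1 with array weights (0.0027) and Ndufaf4 with equal totals without Mgp (0.017) in uremia against control, and for the ratio of Ndufa4l2 to Ndufa4 in uremia against control with vitamin D with FPKM + 1 (0.32). Of all these, Atp5b in uremia against control with vitamin D was called in the fit of its 2 groups and not with the score (adjusted p = 0.978), and no other was called in the fit of its 2 groups. In the fit of all 3 groups without the score Ndufv3 and Cox8b were also called lower in uremia against control with vitamin D. No paired analysis was possible because the groups share no rat numbers. Genes under 10 recovered reads per library, such as Ndufa4l2 (median 7.5) and Cox6b2 (median 3), are limited by depth.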
